A study of Mus musculus with 6 samples.

Results

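The 8 genes described here encode C-type lectin receptors of myeloid cells: Clec4e, Clec4d, Clec4n, Clec4a2, Clec7a, Clec10a, Mgl2 and Mrc1. They were listed by name as members of this receptor class, at a point when results of these data were already known. They are 8 of the 18194 genes that the platform annotation names by a single symbol, and 11 of the 45101 probe sets carry one of their symbols alone. Each gene was read from its probe set with the highest mean over the 6 arrays.

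Expression was measured on Affymetrix arrays in macrophages that thioglycollate, an irritant, had drawn into the peritoneal cavity. The Akirin2 KO cells (genotype LysM-Cre+;Akirin2fl/fl) came from mice in which a Cre recombinase, made from the lysozyme locus in myeloid cells, removes the floxed gene of the nuclear protein Akirin2. The wild-type cells carry the label wildtype, and whether they bear the Cre or the floxed allele is not given. Both genotypes were on a C57BL/6 x 129Sv background and were left unstimulated (0 h) or stimulated for 2 or 4 h with 100 ng/ml of LPS (lipopolysaccharide), which bacteria carry in their outer membrane. A single array (n = 1) stands for every one of the 6 conditions, and neither the ages nor the number of mice behind each array are given.

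C-type lectin receptors recognise sugars and related structures on microbes and on the body's own glycoproteins. Some of them activate the cell: they pair with the adaptor FcR gamma or carry a signalling motif of their own, and act through the kinase Syk and the Card9, Bcl10 and Malt1 complex. Others carry an inhibitory motif, and a further group mainly takes up glycoproteins. In macrophages the sugar-binding uptake receptors are also widely used as markers of alternative activation, the state that interleukin-4 induces.

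Akirin2 itself read 5.18, 5.54 and 4.91 (log2) in KO cells at 0, 2 and 4 h, against 7.43, 7.47 and 7.33 in wild-type cells, so the labels hold for the targeted gene. Of 8 tested macrophage markers, Csf1r, Lyz2 and Cd68 had log2 values of at least 10.6 on all 6 arrays, Adgre1 and Cd14 of at least 8.51, Fcgr1 of 4.66 to 6.48 and Mertk of 3.88 to 5.86, while Itgam (3.06 to 3.47) lay near the array median. The neutrophil genes Elane, Mpo, Ltf, Ngp and Cxcr2 and the dendritic cell genes Flt3, Xcr1, Ccr7 and Cd209a lay under the expression floor. A gene passes this floor by reaching the array's median signal on at least 1 array. Other genes of the same lists passed it, among them S100a8 (7.61 to 9.06), S100a9 (6.09 to 6.70), Csf3r (4.15 to 5.03) and Mmp9 (3.08 to 5.41) for neutrophils, and Zbtb46 (3.75 to 4.33), Itgae (3.03 to 3.82) and Dpp4 (3.34 to 3.79) for dendritic cells. All 8 receptor genes passed this floor and were tested among 13587 genes. Mgl2 reached the median on 3 arrays and Clec10a on 5, so both sit near background, while the other 6 genes reached it on all 6.

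LPS split the receptor genes. Clec4e and Clec4n rose, Mrc1, Clec10a and Clec7a fell, and Clec4d, Clec4a2 and Mgl2 did not pass the test. These calls come from limma with LPS time and genotype as terms and a Benjamini-Hochberg adjusted p under 0.05 over all tested genes. The Clec4n calls came from a probe set that may cross-hybridise, that is, bind other transcripts, and were lost with its other probe set. With 1 array per condition the genotypes stand in for replicates of a time. The p-values thus set the size of an effect against how unlike the responses of the genotypes were. The variance of each gene was drawn toward that of all genes, and the spread between mice is not in it. At 2 h 2 of the 8 genes were called higher and 0 lower, where 3.96% and 2.89% of all tested genes were called. By an unadjusted p under 0.05 at 2 h, 4 of the 8 passed in either direction, as did 2756 of all 13587 tested genes. Clec4e, Clec4d and Clec4n were higher among these, and Mrc1 alone was lower. At 4 h 2 of the 8 were called higher and 3 lower, where 7.76% and 7.61% of all tested genes were called. The 6 tested neutrophil markers summed to 364 to 590 on a linear scale in KO cells and to 360 to 699 in wild-type cells, lowest at 0 h and highest at 4 h in both, and their part in these LPS effects was not tested. S100a8 had the highest values of the 6 and weighs most in these sums. At 4 h 2 of the 6 were called higher and 0 lower, S100a8 (1.26) and Mmp9 (1.14). S100a9 had an effect of -0.46 and Mmp8 of 0.0074, neither of them called. The median effect of the 8 at 4 h was -0.16, and that of all tested genes was -0.026.

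**Figure D1:**
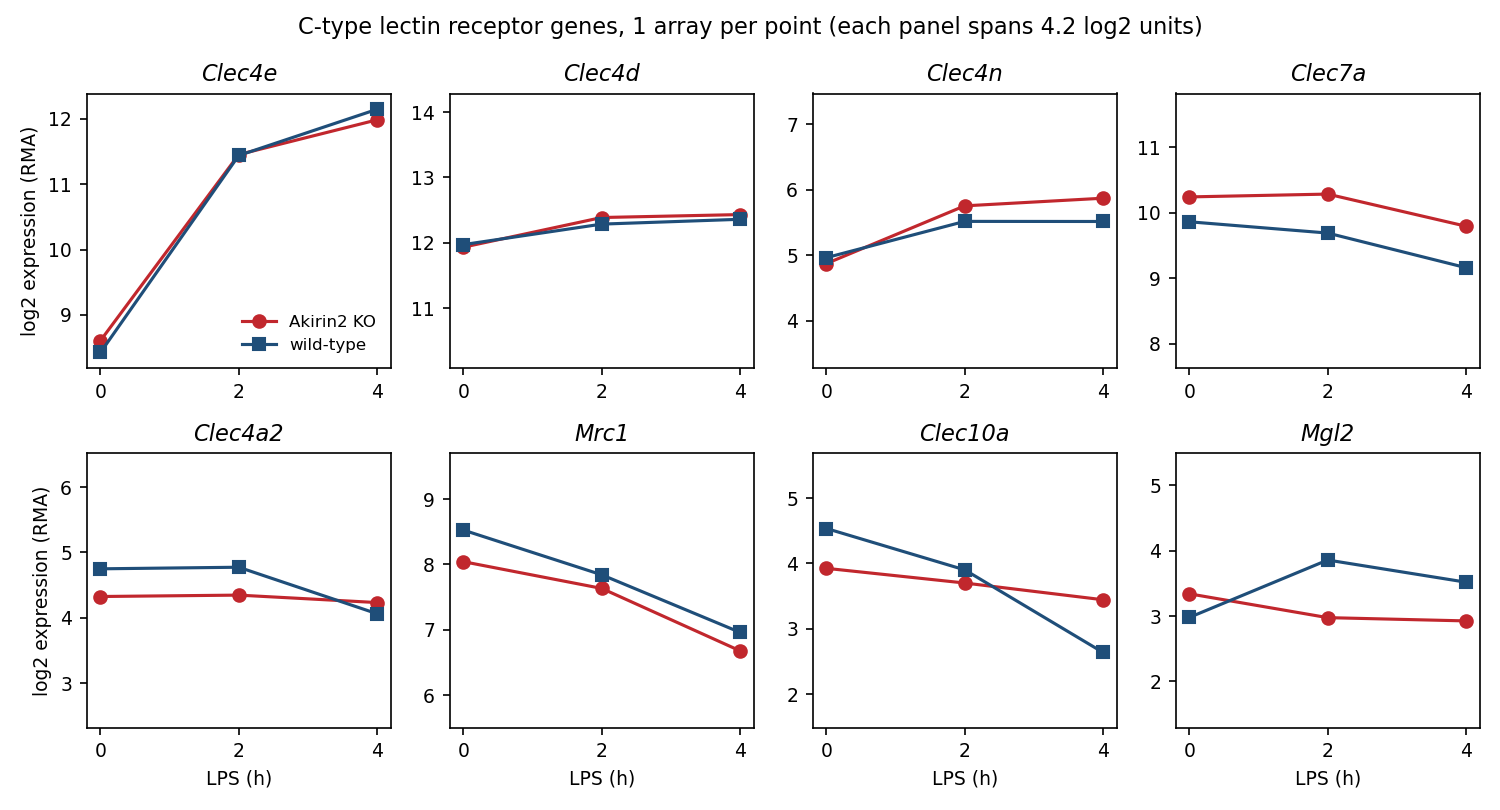
Log2 expression (vertical axis) of the 8 receptor genes against hours of LPS (horizontal axis), in Akirin2 KO (red circles) and wild-type macrophages (blue squares), 1 array per point and 4.2 log2 units in each panel. Clec4e climbs from 0 h to 4 h in both genotypes, Mrc1 declines in both, and the Clec7a line of KO cells stays above that of wild-type cells.

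Clec4e had the largest LPS effect of the 8. It encodes Mincle, which couples to FcR gamma and recognises the mycobacterial cord factor. Its log2 values at 0, 2 and 4 h were 8.61, 11.45 and 11.98 in KO cells, against 8.43, 11.44 and 12.14 in wild-type cells. Each stimulated array was thus above both unstimulated arrays, and the genotypes differed by at most 0.18 at any time on this probe set, where the other one gave -0.31, -0.017 and -0.068. Over both genotypes Clec4e rose 7.61-fold at 2 h (log2 effect 2.93, SE 0.16, adjusted p = 1.94e-05) and 11.7-fold at 4 h (3.55, SE 0.16, adjusted p = 6.25e-06). The other Clec4e probe set gave differences from 0 h of 3.29 and 4.01 in KO cells and 3.001 and 3.77 in wild-type cells, beside 2.84 and 3.37 in KO cells and 3.01 and 3.72 in wild-type cells from the main one. Clec4e was the only member at least 2-fold higher at 2 h within a genotype, where 2.44% of all tested genes were in KO cells and 2.26% in wild-type cells. The same held at 4 h, against 4.07% in KO cells and 3.72% in wild-type cells. Clec4n in KO cells at 4 h lay just under this rule (0.9986 log2, and 1.24 from its other probe set).

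Clec4d lies next to Clec4e on chromosome 6 and encodes MCL, a receptor that pairs with Mincle. Its log2 values were 11.93, 12.39 and 12.43 in KO cells at 0, 2 and 4 h, against 11.97, 12.29 and 12.36 in wild-type cells. All 4 stimulated arrays were above the 2 unstimulated ones, but by little. These values come from the only probe set with this symbol alone, which may cross-hybridise. The effect of 0.38 at 2 h (SE 0.15, adjusted p = 0.184) and 0.44 at 4 h (SE 0.15, adjusted p = 0.0823) did not pass the test. At 4 h it passed in 3 of 14 alternatives, with the higher floor (adjusted p = 0.0448), with probe sets averaged (0.0455) and with limma's trend and robust options (2.76e-06), in a range up to 0.249. At 2 h it passed with the last of these alone (4.49e-05, range up to 0.745).

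Clec4n encodes Dectin-2, which binds fungal mannans and also signals through FcR gamma. Its log2 values were 4.87, 5.75 and 5.87 in KO cells, against 4.96, 5.52 and 5.51 in wild-type cells, with every stimulated array above both unstimulated ones. It rose 1.64-fold at 2 h (0.72, SE 0.16, adjusted p = 0.0385) and 1.71-fold at 4 h (0.78, SE 0.16, adjusted p = 0.0146). The probe set used for these values may cross-hybridise. The other Clec4n probe set, which was not dropped for this, differed more between genotypes: its differences from 0 h were 0.99 and 1.24 in KO cells and 0.35 and 0.11 in wild-type cells. Read from that probe set alone, the gene no longer passed at either time (adjusted p = 0.157 at 2 h, in a range of 0.0106 to 0.287 over 15 alternatives, and 0.104 at 4 h, in a range of 0.00381 to 0.104). The call was also lost without the KO 0 h array at both times (0.52 and 0.58), without the KO or the wild-type 2 h array at 2 h, and without the KO 4 h array at 4 h.

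The RefSeq sequences of the 250 bases before the start of Clec4e and Clec4d (GRCm38.p6, 5′ to 3′ on the gene's strand) are shown because these neighbours differed in their LPS effect. The Clec4e window is chr6:123289872-123290121 on the minus strand and the Clec4d window chr6:123261857-123262106 on the plus strand. Capitals mark matches on either strand to TTNNGNAA, the C/EBP motif, which transcription factors of the C/EBP family bind.
Clec4e: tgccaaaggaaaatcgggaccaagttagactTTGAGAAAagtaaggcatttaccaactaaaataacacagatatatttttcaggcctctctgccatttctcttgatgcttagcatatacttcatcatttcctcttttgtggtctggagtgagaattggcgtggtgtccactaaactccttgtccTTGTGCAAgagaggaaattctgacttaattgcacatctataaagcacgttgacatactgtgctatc
Clec4d: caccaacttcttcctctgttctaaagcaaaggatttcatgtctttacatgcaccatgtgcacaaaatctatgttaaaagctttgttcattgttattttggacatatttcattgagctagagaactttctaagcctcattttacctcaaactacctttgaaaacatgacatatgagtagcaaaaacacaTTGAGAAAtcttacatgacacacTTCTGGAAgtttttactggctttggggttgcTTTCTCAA

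The Clec4e window holds 2 such matches, the nearer of them TTGTGCAA between 66 and 59 bases before the start, and the Clec4d window holds 3. The motif is common: 36.8% of 32851 promoter windows of the same length hold it. A search for the kappaB motif, the NF-kB site, found no match in either window, and 7.25% of all windows hold one. These matches describe letters and do not show binding. The 3 listed genes of the C/EBP family went both ways at 4 h: Cebpa had an effect of -1.85 (adjusted p = 0.000274), Cebpb of 0.83 (adjusted p = 0.00578) and Cebpd of 1.20 (adjusted p = 0.00355). Cebpb and Cebpd were picked here after their values were seen.

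Clec7a encodes Dectin-1, the beta-glucan receptor, whose tail carries its own signalling motif. Its log2 values were 10.24, 10.28 and 9.79 in KO cells, against 9.86, 9.69 and 9.16 in wild-type cells. The 4 h array was the lowest of its genotype in both series. Clec7a differed by -0.065 at 2 h (SE 0.15, adjusted p = 0.866) and fell by 0.57 at 4 h (SE 0.15, adjusted p = 0.0364), which is 1.49-fold lower. The call at 4 h was lost without any one of 5 of the 6 arrays, with effects between -0.65 and -0.46, and held only without the KO 0 h array (-0.69). Leaving out the KO or the wild-type 2 h array gave the same fit (-0.57).

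Clec4a2 encodes DCIR, which carries an inhibitory motif. Its log2 values were 4.33, 4.35 and 4.23 in KO cells, against 4.75, 4.77 and 4.06 in wild-type cells. The LPS effect was 0.023 at 2 h (adjusted p = 0.968) and -0.39 at 4 h (SE 0.19, adjusted p = 0.219). Its other probe set turned the wild-type difference at 4 h, with 0.26 against -0.69 from the main one. The direction of Clec4a2 in wild-type cells therefore differed between its probe sets.

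Mrc1 had the largest decline of the 8 in the fit over both genotypes, while in wild-type cells alone the 4 h difference of Clec10a was larger (-1.89, against -1.56 for Mrc1). It encodes the mannose receptor CD206, an uptake receptor and a common marker of alternative activation. Its log2 values were 8.04, 7.63 and 6.68 in KO cells at 0, 2 and 4 h, against 8.53, 7.84 and 6.96 in wild-type cells. Each genotype declined at both steps, and both 4 h arrays were below all others. At 2 h the effect was -0.55 (SE 0.15, adjusted p = 0.0753). At 4 h Mrc1 fell by 1.46 (SE 0.15, adjusted p = 0.000418), or 2.76-fold, and this call held without each array in turn (-1.58 to -1.34). Between 2 h and 4 h it fell by 0.92 (SE 0.15, adjusted p = 0.0199) as the only member, where 1.11% of all tested genes were called lower. That call was lost without the KO 2 h array, the wild-type 2 h array or the wild-type 4 h array (-0.83, -1.004 and -0.88).

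The 250 bases before the start of Mrc1 (RefSeq, GRCm38.p6, chr2:14229164-14229413, plus strand) are shown for contrast with Clec4e. Capitals again mark TTNNGNAA on either strand, here a pair of overlapping matches that run together.
Mrc1: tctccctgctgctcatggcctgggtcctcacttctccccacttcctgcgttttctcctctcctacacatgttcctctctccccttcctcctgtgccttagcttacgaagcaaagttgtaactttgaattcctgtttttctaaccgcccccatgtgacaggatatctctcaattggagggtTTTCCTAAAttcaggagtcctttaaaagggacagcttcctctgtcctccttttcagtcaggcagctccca

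RefSeq windows were at hand for 6 of the 8 genes, and 5 of these held a C/EBP match: Clec4e, Clec4d, Clec4a2, Mgl2 and Mrc1. Of all promoter windows 36.8% hold one. The same search for GAGGAA, the motif of the transcription factor PU.1, matched in Clec4e, Clec4d, Clec7a, Mgl2 and Mrc1, and 23.3% of all windows hold it.

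Clec10a and Mgl2 are neighbours on chromosome 11 and encode the galactose-binding lectins MGL1 and MGL2. Clec10a read 3.92, 3.70 and 3.44 in KO cells, against 4.53, 3.90 and 2.64 in wild-type cells. The wild-type 0 h array was the highest and the wild-type 4 h array the lowest of the 6, and that 4 h value lay under its array's median of 3.18. Clec10a fell by 1.19 at 4 h (SE 0.29, adjusted p = 0.0266), or 2.28-fold. That call rested on wild-type cells: without the wild-type 4 h array the effect was -0.58 (adjusted p = 0.149) and without the wild-type 0 h array it was -0.73 (adjusted p = 0.0869), in a range of adjusted p from 0.000156 to 0.149 over the alternatives. Mrc1 and Clec10a were the members at least 2-fold lower at 4 h in wild-type cells (-1.56 and -1.89), where 4.75% of all tested genes were. In KO cells it was Mrc1 alone (-1.36), where 2.47% of all tested genes were.

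Mgl2 read 3.34, 2.98 and 2.93 in KO cells, against 2.98, 3.86 and 3.52 in wild-type cells. The array medians lay between 3.18 and 3.23, so its values straddle background. It had no call at 2 h (0.26, adjusted p = 0.668) or 4 h (0.062, adjusted p = 0.909). Without the KO 0 h array it was called higher at both times (0.80, adjusted p = 0.0190, and 0.61, adjusted p = 0.0481), the lowest adjusted p of 14 alternatives at each time, where the highest were 0.968 and 0.933. Its LPS differences ran in opposite directions, -0.36 and -0.41 in KO cells and 0.88 and 0.54 in wild-type cells.

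**Figure D2:**
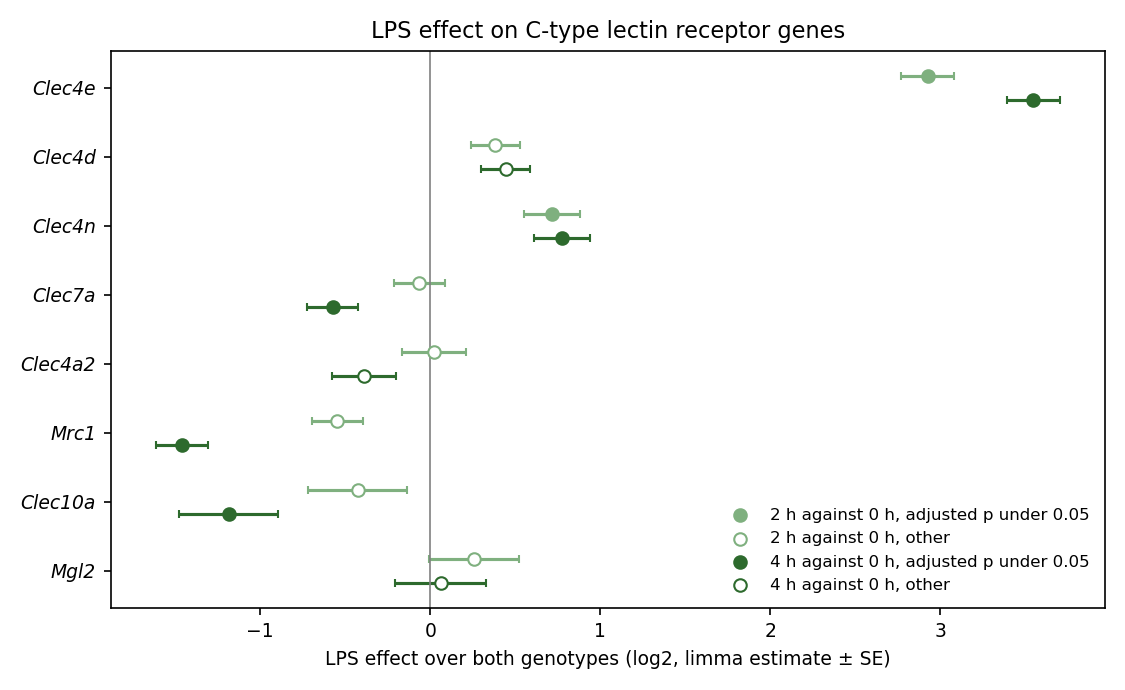
LPS effect over both genotypes (horizontal axis, log2, limma estimate with bars of ± SE) for each receptor gene at 2 h (light green) and 4 h (dark green) against 0 h. Filled points passed an adjusted p under 0.05: Clec4e and Clec4n to the right at both times, and Clec7a, Mrc1 and Clec10a to the left at 4 h.

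Loss of Akirin2 gave no call among the 8 genes in the fit over all 3 times, where 1.95% of all tested genes were called. Of the 8, 2 had an unadjusted p under 0.05, Clec7a and Mrc1, where 2091 of all 13587 tested genes had one. In this fit the 3 times stand in for replicates, so a small p here means a difference that was large beside its variation with time. The spread between mice is not in it. No member differed at least 2-fold between the genotypes at any single time, where 1.93% of all tested genes did at 0 h, 0.949% at 2 h and 1.45% at 4 h.

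Clec7a was higher in KO cells at all 3 times, by 0.38, 0.60 and 0.63 at 0, 2 and 4 h. Over the 3 times it averaged 10.11 in KO cells and 9.57 in wild-type cells, a difference of 0.54 (SE 0.12, adjusted p = 0.0751), with an overlap between the KO array at 4 h and the wild-type array at 0 h. Without the 0 h arrays the difference was 0.61 and passed (adjusted p = 0.0277, range 3.26e-05 to 0.376 over 17 alternatives, 4 of them under 0.05). Leaving out only 1 of the 0 h arrays gave the same fit for this term, so most of these 4 passes are not separate checks. Mrc1 was lower in KO cells at all 3 times, by -0.48, -0.21 and -0.28, with a mean difference of -0.32 (SE 0.12, adjusted p = 0.262). Both values held their direction under all alternatives run. Clec4e (0.011, adjusted p = 0.977), Clec4d (0.045, adjusted p = 0.896) and Clec4n (0.17, SE 0.13, adjusted p = 0.610) had smaller differences that did not pass. Mgl2 (-0.37, adjusted p = 0.477) passed without the 0 h arrays (-0.74, adjusted p = 0.0141, range 0.0141 to 0.958 over 16 alternatives). Its only other passes, without either one of the 0 h arrays, were that same fit.

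Other measures differed between the genotypes beside these values. The 12 tested mesothelial and fibroblast markers summed to 510 to 632 on a linear scale in KO cells and to 827 to 936 in wild-type cells, and the 8 resident peritoneal macrophage markers to 789 to 1068 in KO cells and to 1373 to 1598 in wild-type cells. Genes with high values, such as Col1a1 and Cxcl13, weigh most in these sums. Called lower in KO cells were only Col1a2 (-0.83) of the former list, and Cxcl13 (-1.27) and Adgre4 (-1.06) of the latter. Gata6 hardly differed (-0.046), and Upk3b (0.14) and Lrrn4 (0.12) were slightly higher in KO cells. The rest of both lists had negative, uncalled differences. The 3′ minus 5′ difference of the Actb control probes was 4.36 to 4.64 in KO cells and 4.09 to 4.22 in wild-type cells. That of the Gapdh control probes overlapped between the genotypes, with 4.34 to 4.52 in KO cells and 4.33 to 4.42 in wild-type cells. Both controls had a difference of at least 4.09 on every array, and how this bears on the other values was not tested. Of the 8 macrophage markers, Fcgr1 was lower in KO cells (-0.89, adjusted p = 0.0115) and no other was called. The part of these measures in the Clec7a and Mrc1 differences was not tested. In such bulk samples, fewer cells of a type and less RNA per cell cannot be told apart.

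**Figure D3:**
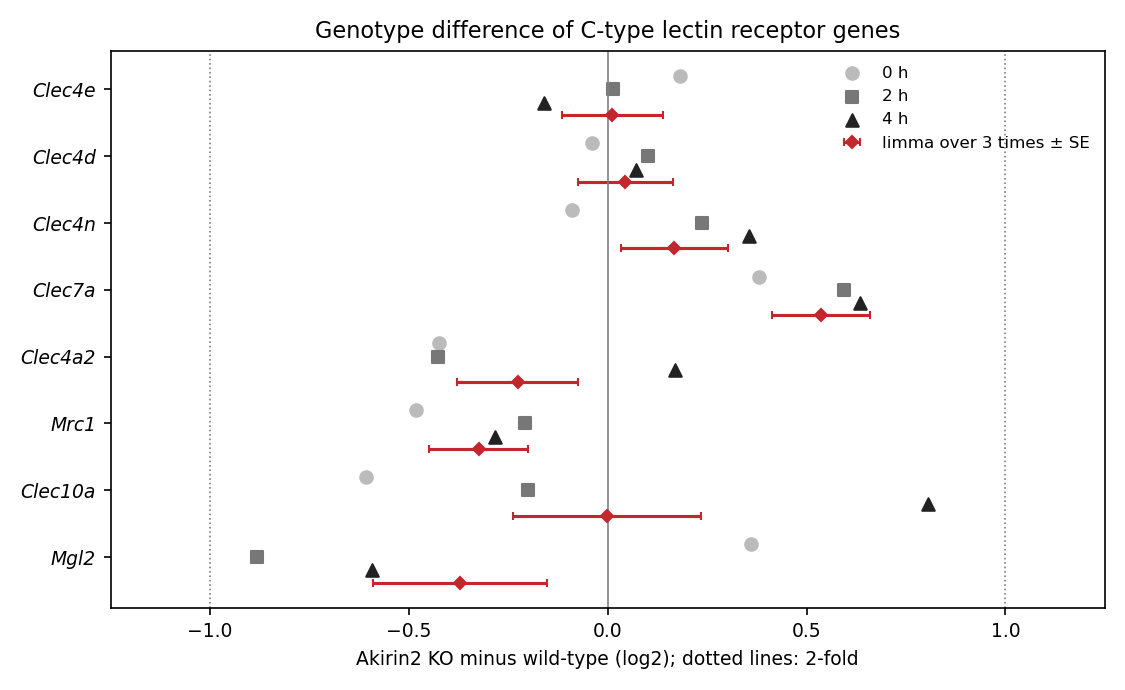
Akirin2 KO minus wild-type difference (horizontal axis, log2) of each receptor gene at 0 h (light circles), 2 h (grey squares) and 4 h (black triangles), with the limma estimate over the 3 times and its SE (red). The 3 Clec7a points lie to the right of 0 and the 3 Mrc1 points to the left, and all points lie inside the dotted 2-fold lines.

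The LPS response itself was compared between genotypes by a genotype by stimulation term. No member passed, where 0.0294% of all tested genes did. An unadjusted p under 0.05 was found for 2, Clec10a and Mgl2, and for 1739 of all 13587 tested genes. The median of this term over all tested genes was 0.10, and -0.11 after each array was centred, so values are also given relative to the median. Mgl2 had -1.10 (SE 0.26, adjusted p = 0.125), or -1.20 relative to the median, and it passed with limma's trend and robust options (adjusted p = 0.0349, range 0.0349 to 0.181 over 7 alternatives). Clec10a had 0.91 (SE 0.35, adjusted p = 0.303), or 0.81 relative to it. Its decline at 4 h was -0.48 in KO cells and -1.89 in wild-type cells, a response difference of 1.41, and Clec10a was the only member with at least a 2-fold response difference at 4 h, where 3.14% of all tested genes had one. It rests on the wild-type 4 h value of 2.64, which is under that array's median and so is not clearly above background. At 2 h Mgl2 was the only one (-1.24), where 1.74% of all tested genes had one. For Clec4e the response was 3.37 in KO cells and 3.72 in wild-type cells at 4 h, and its genotype by stimulation term was -0.25 (SE 0.25, adjusted p = 0.724), or -0.36 relative to the median and -0.47 with arrays centred.

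Other C-type lectin and lectin-like receptor genes also went both ways. Of 25 tested, 7 rose and 4 fell at 4 h, where 7.76% and 7.61% of all tested genes did. The list median was -0.023. Clec5a, a receptor that signals through the adaptor DAP12, rose by 3.001 (SE 0.16, adjusted p = 1.71e-05), and the early activation gene Cd69 rose by 2.95. Thbd, the thrombin receptor thrombomodulin, fell by 2.29, and Layn, a hyaluronan receptor, rose by 1.49. Between genotypes 2 of the 25 were higher in KO cells and 0 lower, where 1.95% of all tested genes were called in either direction. Ly75, the uptake receptor DEC-205, was higher by 1.05 (SE 0.12, adjusted p = 0.00601) and Layn by 0.83 (SE 0.14, adjusted p = 0.0277). Ly75 read 6.90, 7.70 and 8.22 in KO cells, against 5.85, 6.57 and 7.26 in wild-type cells. Another 17 genes of this list lay under the floor, among them Cd209a, Cd209b, Cd209c, Cd209d, Cd209f and Cd209g of the DC-SIGN family, the Langerhans cell gene Cd207 and the liver lectin genes Asgr1 and Asgr2.

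Genes of the signalling path below the activating receptors were tested alongside. Of 28, 7 rose and 4 fell at 4 h, beside 7.76% and 7.61% of all tested genes. The list median was 0.20. Malt1, the protease of the Card9 complex, rose by 2.52 (SE 0.28, adjusted p = 0.000573), the kinase gene Prkcd by 1.30 and Syk by 1.11 (SE 0.15, adjusted p = 0.00131). Inpp5d, the gene of the lipid phosphatase SHIP1, fell by 0.96. Syk read 7.91, 8.73 and 8.99 in KO cells, against 7.86, 8.62 and 8.99 in wild-type cells. The FcR gamma gene Fcer1g, named here because Clec4e, Clec4d and Clec4n signal through its product, had an effect of 0.29 at 4 h (SE 0.14, adjusted p = 0.244). Pik3r1 was higher in KO cells by 0.77 (SE 0.15, adjusted p = 0.0389). It was the 1 call between genotypes among the 28, where 1.95% of all tested genes were called. Over 17 alternatives this count was 0 to 2, and it was 0 with the higher floor, with probe sets averaged and without the 2 h or the 4 h arrays, or any one of these 4.

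Among 19 tested genes linked to alternative activation, 5 rose and 7 fell at 4 h, with a median of -0.37. Of all tested genes 7.76% rose and 7.61% fell. Pparg, a nuclear receptor gene, fell by 2.02, the arginase gene Arg1 by 1.93 (SE 0.15, adjusted p = 7.70e-05) and the transcription factor gene Klf4 by 1.75, in the direction of Mrc1. The chemokine gene Ccl22 rose by 2.39. Between genotypes 2 of the 19 were called, where 1.95% of all tested genes were. Ccl24 (-1.13) and Maf (-0.81) were lower in KO cells. Of 18 transcription factor genes linked to the receptors, 9 rose and 3 fell at 4 h, beside the same 7.76% and 7.61%. Their median was 0.44. Nfkbiz, the gene of the NF-kB cofactor IkB-zeta, rose by 3.47 and Irf1 by 2.67, while Cebpa (-1.85) and Irf8 (-1.54) fell. Irf1 was lower in KO cells (-0.82, SE 0.13, adjusted p = 0.0218). It was the 1 call between genotypes in that list, where 1.95% of all tested genes were called. That count was 0 with arrays centred and without the 2 h arrays or either of them, and 3 without the 0 h arrays or either of them.

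**Figure D4:**
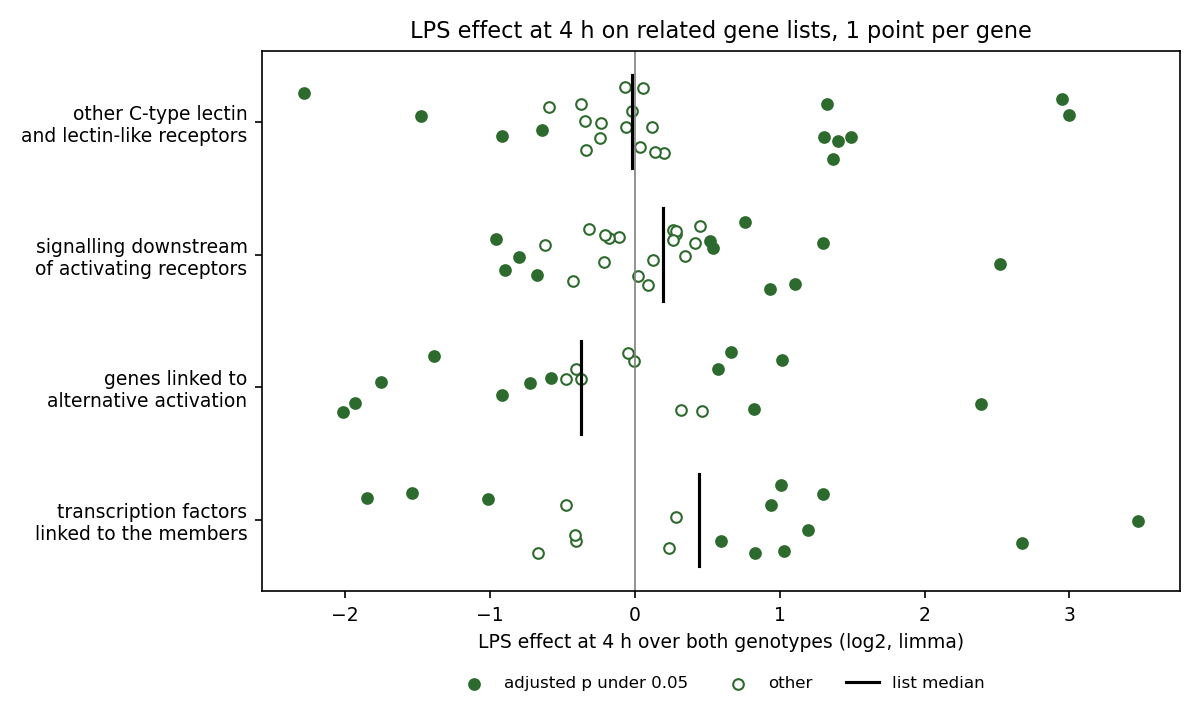
LPS effect at 4 h over both genotypes (horizontal axis, log2) of the tested genes of 4 lists, 1 point per gene, filled where the adjusted p was under 0.05, with the list median as a black bar. Calls lie on both sides of 0 in each list, and the medians run from -0.37 for alternative activation to 0.44 for transcription factors.

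For each member the genes most like it over the 6 arrays were taken by Pearson correlation, among the 2240 genes whose values spanned at least 1 log2 unit. With 6 arrays that share genotype and time, these correlations are descriptive. Clec4e was closest to Mllt6 (0.997), the signalling adaptor gene Traf1 (0.996) and the chemokine gene Cxcl3 (0.996). Mrc1 was closest to Emilin2 (0.999), the transporter gene Abca9 (0.996) and Arg1 (0.995). Clec4d and Clec4n shared Metap1 as the closest gene (0.996 and 0.992). Clec7a was closest to the growth factor gene Pdgfa (0.992), and Clec10a to Ccdc28a (0.994). Mgl2 had no gene above 0.874, the lowest best value of the 8.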

How the data were processed

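Gene expression was measured on 6 arrays, 1 for each combination of genotype and LPS time. The authors deposited one log2 value for each probe set and array. The submitters' processing notes name RMA, a method that corrects background, normalizes between arrays by quantiles and summarises probes. Its version is not given in the sources used here. Values ran from 2.26 to 14.2, and correlations between arrays were 0.958 to 0.989. Arrays give no depth, and their number limits the precision.

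Of the 45101 probe sets, 34958 carry 1 symbol in the platform annotation, 932 several and 9211 none. A single probe set that lists Clec4a2 with another gene was not used. By gene number, all 8 members were found in RefSeq (GRCm38.p6). Each gene took the probe set with the highest mean, and 13587 genes passed the floor. limma 3.58.1 in R 4.3.3 (lmFit, eBayes) fitted time and genotype, leaving 2 residual and 6.35 prior degrees of freedom. A second fit added genotype by stimulation and had 1 and 11.5. p-values were adjusted over all tested genes. The fit was tested on simulated data. Single arrays were compared by size, with 2-fold as the rule. Named genes are Akirin2, the members, up to 4 genes of a list with the largest effects past the threshold, and for likeness the 3 closest genes, of which some are printed. The members and lists were chosen with earlier results of these data known. Nothing says that arrays came from separate mice. Marker lists of eosinophils (2 tested genes), B cells (4), T and NK cells (4) and mast cells (5) had 0 calls at 4 h except 1 lower in T and NK cells, and 0 between genotypes except 1 higher in T and NK cells. Of macrophage (8), neutrophil (6) and dendritic markers (5), 1 rose and 2 fell, 2 rose, and 1 rose at 4 h, and 1 macrophage marker was lower between genotypes. Of 8 resident macrophage markers, 1 rose and 2 fell at 4 h, and 2 were lower between genotypes. Of 12 mesothelial and fibroblast markers, 1 rose at 4 h and 1 was lower between genotypes.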

Additional observations from a re-analysis of the deposited data

Results flagged for a closer look

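Mgl2 drew attention because every LPS difference from 0 h was negative in KO cells (-0.36 at 2 h and -0.41 at 4 h) and positive in wild-type cells (0.88 and 0.54). The genotype by stimulation term was -1.10 and did not pass (adjusted p = 0.125). Its values were 2.93 to 3.34 in KO cells and 2.98 to 3.86 in wild-type cells, where array medians were 3.18 to 3.23. No condition has a replicate.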

How the results depend on the processing

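Clec4e (2.80 to 3.05 at 2 h and 3.42 to 3.72 at 4 h) and Mrc1 at 4 h (-1.58 to -1.34) kept direction and call under all 15 alternatives run. With probe sets averaged, 1 member was called higher and 1 lower at 2 h, 1 was higher between 2 and 4 h, and 2 were 2-fold higher in KO cells at 4 h. Without probe sets that may cross-hybridise, which drops Clec4d, 1 was higher at 2 h and 1 at 4 h, and 2 were 2-fold higher in KO cells and 2 had a larger response in KO cells at 4 h. A count of 1 lower at 2 h came with quantile normalization again, with eBayes set to trend and robust, or at an adjusted p of 0.1. With trend and robust, 1 was higher and 2 lower between 2 and 4 h, 1 was higher in KO cells (Clec7a) and 1 had a smaller response there (Mgl2). At 0.1, 1 was higher between 2 and 4 h and 1 in KO cells. Without the 0 h arrays 1 was higher and 2 lower between the LPS times, and 1 was higher and 1 lower in KO cells. For these terms, leaving out only 1 of the 0 h arrays gave the same fit. The same held for the other times in terms that do not contrast them, so the alternatives count some fits more than once. The higher floor drops Mgl2, leaving 0 members with a smaller response in KO cells at 2 h. With arrays centred, 2 were 2-fold higher in wild-type cells at 2 h, and 1 had a smaller response in KO cells at 4 h. Leaving out 1 array gave 1 to 2 members higher and 0 to 1 lower after 2 h of LPS, 1 to 2 higher and 1 to 3 lower after 4 h, 0 to 1 higher and 0 to 2 lower between them, and 0 to 1 higher and 0 to 1 lower in KO cells. At 1.5-fold, KO against wild-type differences counted 1 lower at 0 h, 1 in each direction at 2 h, and 2 higher with 1 lower at 4 h. LPS differences then counted 2 higher at both times in KO cells, 2 in each direction at 2 h with 4 lower at 4 h in wild-type cells, and response differences 2 higher and 1 lower at 4 h. At 3-fold 0 were lower in KO cells and 1 in wild-type cells at 4 h, and 0 had a response difference.

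Among the fitted effects, directions turned only where there was no call. The genotype difference of Clec4e was -0.059 with probe sets averaged, -0.073 without the 0 h arrays and -0.073 to 0.097 with 1 array left out. That of Clec4n was -0.10 without cross-hybridising probe sets. That of Clec10a was 0.013 with quantile normalization again, 0.017 with arrays centred, 0.30 and 0.098 without the 0 h or 2 h arrays and -0.40 to 0.30 with 1 array left out. The genotype by stimulation term was 0.0045 for Clec4e and -0.0051 for Clec4a2 with probe sets averaged, and -0.088 for Clec4d with arrays centred. The 2 h effect of Clec7a was 0.0030 with arrays centred. With 1 array left out, 2 h effects spanned -0.18 to 0.053 for Clec7a, -0.13 to 0.17 for Clec4a2, -0.88 to 0.027 for Clec10a and -0.29 to 0.80 for Mgl2. The 4 h effect of Mgl2 spanned -0.49 to 0.61. The change between LPS times spanned -0.58 to 0.19 for Mgl2 and -0.084 to 0.20 for Clec4n. The causes were not tested. The genotype by stimulation term was not run with arrays left out, as no residual degrees of freedom remain. Over the alternatives, 7 of the other C-type lectin genes were higher at 4 h each time and 3 to 6 lower, 4 to 8 signalling genes were higher and 2 to 7 lower, 2 to 6 alternative activation genes higher and 4 to 9 lower, and 7 to 10 transcription factors higher and 3 to 5 lower. Between genotypes, the other C-type lectin genes counted 1 to 3 higher and 0 to 2 lower over 17 alternatives, signalling genes 0 to 2 in each direction, alternative activation genes 0 to 1 higher and 1 to 5 lower, and transcription factors 0 to 1 higher and 0 to 3 lower.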

Other observations

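Irf4, a transcription factor gene of macrophages and dendritic cells, moved in opposite directions in the genotypes, and it was picked after its values were seen. It read 4.70, 5.74 and 5.27 in KO cells at 0, 2 and 4 h, against 5.19, 4.75 and 3.80 in wild-type cells. Its genotype by stimulation term was 1.72 (SE 0.27, adjusted p = 0.0516), and neither its LPS effect at 4 h (-0.41, adjusted p = 0.547) nor its genotype difference (0.66, adjusted p = 0.364) passed. The KO array was the higher at 2 h and 4 h and the lower at 0 h.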
